A study of Mus musculus with 8 samples.

Results

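The urea cycle and amino acid catabolism genes described here are Cps1, Otc, Ass1, Asl, Arg1, Glul, Gls2, Tat and Tdo2, chosen by gene symbol, with every probe set that the platform annotation gives to 1 of these symbols. Of the 9 genes, 7 had at least 1 probe set of their own, among 12393 gene symbols with one in the whole series, and together they had 11 probe sets of 22626. The single probe set listed for Ass1 is shared with the pseudogene Gm5424, so its values stand below under both names and are left out of all counts. Gls2, the liver form of glutaminase, was not analysed here. All 11 probe sets passed the filter on dim probe sets.

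RNA came from livers of 8 mice, 1 oligonucleotide array per mouse. The 4 groups, with 2 arrays each, were LXR alpha T0901317, LXR alpha vehicle, GFP T0901317 and GFP vehicle. Every mouse was null for the low density lipoprotein receptor on the C57B6 background, was 8 months old and was on a Western diet, given for 12 weeks. An adeno-associated virus (AAV2.8) given at 10 weeks of age carried either human LXR alpha or, as the control transgene, GFP, in both cases behind the human thyroxine binding globulin promoter, which is active in the liver. LXR alpha is a nuclear receptor for oxysterols, and T0901317 is a synthetic agonist of both liver X receptors that was injected into the peritoneum at 5 mg/kg for 3 days. Vehicle was given over the same 3 days.

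The urea cycle turns ammonia, released when amino acids are broken down, into urea, and in the liver its enzymes are most abundant in hepatocytes near the portal vein. Glutamine synthetase, encoded by Glul, takes up the remaining ammonia in hepatocytes next to the central vein. Tat and Tdo2 catalyse the first steps of tyrosine and tryptophan breakdown and are classical targets of glucocorticoids in hepatocytes.

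Array medians lay between 21.0 and 23.2 intensity units. Replicates of a group correlated with r between 0.949 and 0.978 over probe sets. The hepatocyte marker Alb, the gene of serum albumin, had mean log2 intensities of 14.70 in LXR alpha T0901317 livers, 14.72 in LXR alpha vehicle livers, 14.44 in the GFP T0901317 livers and 14.82 in the GFP vehicle livers, and the last 2 groups did not overlap. The ratio of 3' to 5' signal of the β-actin control probe sets, a measure of RNA integrity and labelling, separated 3 arrays from the rest. LXR alpha T0901317 livers had ratios of 2.75 and 36.3, LXR alpha vehicle livers 2.61 and 3.08, GFP T0901317 livers 7.56 and 11.04, and GFP vehicle livers 2.21 and 2.08. Both GFP T0901317 arrays were therefore high, and in GFP livers the effect of T0901317 and this ratio cannot be told apart. Among LXR alpha T0901317 livers only replicate 2 was high. No vehicle array was high, so the T0901317 differences averaged over both transgenes are also mixed in part with this ratio. The T0901317 differences in LXR alpha livers were also fitted without these 3 arrays of high ratio. That fit sets 1 T0901317 liver, replicate 1, against 2 vehicle livers and holds no spread between T0901317 livers. Its differences are therefore given without SE or p-value. They stand beside each single gene value that this moved by over 1.5 times or turned in sign. For genes outside the members only 1 probe set per gene was refitted this way, so the other probe sets named have no such value.

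The 300 bases around a RefSeq start site (250 before it and 50 after it, build GRCm38.p6) are printed for Glul and Tat, the genes whose probe sets held the largest differences between T0901317 and vehicle. Capitals mark matches, on either strand, to the TATA box letters TATAAA, the box named CCAAT, the form TTNNGNAA bound by C/EBP factors, a glucocorticoid receptor site TGTTCT, a cyclic AMP response site TGACG or a nuclear receptor site AGGTCA, the last 3 being single repeats of longer sites. The Glul window is chr1:153899679-153899978 on the plus strand. The Tat window is chr8:109990186-109990485 on the plus strand and surrounds a start site that lies inside the annotated gene, beyond its first base.
Glul: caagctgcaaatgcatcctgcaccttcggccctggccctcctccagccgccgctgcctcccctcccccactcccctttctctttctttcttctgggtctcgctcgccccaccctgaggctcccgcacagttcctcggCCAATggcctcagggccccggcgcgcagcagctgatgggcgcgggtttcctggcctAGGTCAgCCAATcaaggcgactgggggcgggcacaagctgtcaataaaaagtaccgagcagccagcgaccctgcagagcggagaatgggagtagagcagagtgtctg
Tat: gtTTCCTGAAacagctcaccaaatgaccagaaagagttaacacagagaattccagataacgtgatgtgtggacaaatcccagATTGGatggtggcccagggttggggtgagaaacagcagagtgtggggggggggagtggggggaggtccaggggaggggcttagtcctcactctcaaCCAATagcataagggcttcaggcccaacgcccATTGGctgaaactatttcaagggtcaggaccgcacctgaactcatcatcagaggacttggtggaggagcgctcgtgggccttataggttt

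In the Glul window CCAAT occurred at bases -113 to -109 and -50 to -46 from the start site, and AGGTCA at -57 to -52. The Tat window held CCAAT 3 times, at -168 to -164 and -40 to -36 on the minus strand and at -72 to -68 on the plus strand, and TTNNGNAA at -248 to -241 on the minus strand. Of all 32851 windows of this length, 37.4% held CCAAT, 16.3% AGGTCA and 40.7% TTNNGNAA. A direct repeat of AGGTCA with 4 bases between, the form bound by liver X receptors, had no exact match in the 5 member windows that the table holds (Glul, Ass1, Tdo2, Tat and Otc), and 0.0152% of all windows had one.

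No urea cycle or amino acid catabolism probe set passed an adjusted p of 0.05 in any of the 7 comparisons (limma, Benjamini-Hochberg over 15838 probe sets). The share of all probe sets that passed was 0.0253% for T0901317 against vehicle in LXR alpha livers, 0% in GFP livers and 0.568% for T0901317 averaged over both transgenes. It was 0% for LXR alpha against GFP in T0901317 livers. For LXR alpha against GFP in vehicle livers, for the same averaged over treatments and for the interaction of transgene and T0901317 it was 0.00631% each. The smallest adjusted p among the 11 probe sets was 0.0746, for a Glul probe set under T0901317. At an unadjusted p under 0.05, T0901317 in LXR alpha livers gave 0 higher and 2 lower of the 11, and T0901317 in GFP livers 1 higher and 0 lower, where 13.2% of all probe sets passed in each comparison. By direction, those were 7.88% higher and 5.3% lower in LXR alpha livers, and 8.5% higher and 4.65% lower in GFP livers. LXR alpha against GFP in vehicle livers gave 1 higher and 0 lower at that p, where 5.15% of all probe sets passed, 2.27% higher and 2.89% lower. For T0901317 averaged over transgenes 1 was higher and 1 lower (23.2% of all probe sets), and likewise for LXR alpha averaged over treatments (2.66% of all). For LXR alpha against GFP in T0901317 livers 1 was lower (2.24% of all), and so was 1 for the interaction (4.77% of all). The plot of intensities by array shows the values behind these counts.

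**Figure D1:**
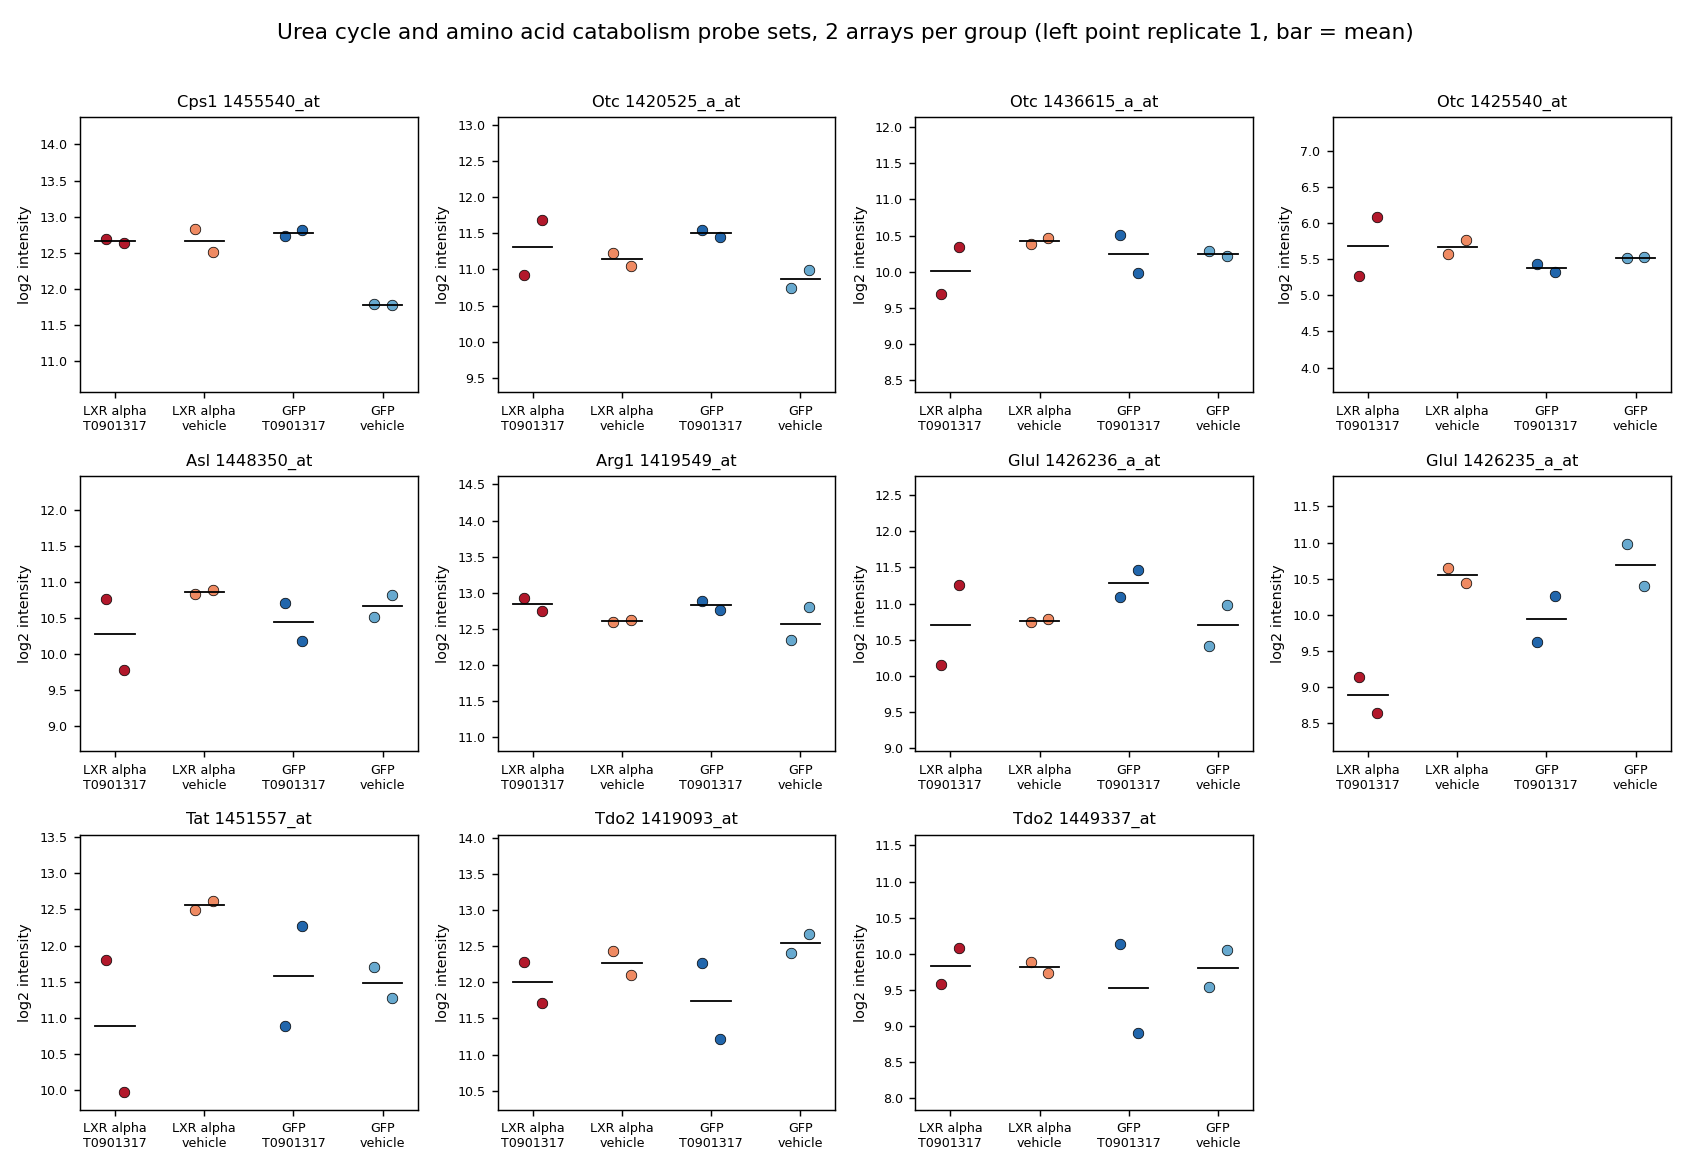
Log2 intensity of the 11 probe sets on each of the 8 arrays, grouped as LXR alpha T0901317, LXR alpha vehicle, GFP T0901317 and GFP vehicle. Points are arrays and bars are means of 2. Each panel has its own axis, and levels of different probe sets are not comparable. Cps1 is low in both GFP vehicle livers, and Glul 1426235_a_at is lowest in the LXR alpha T0901317 livers.

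Cps1 makes carbamoyl phosphate from ammonia in mitochondria and is the entry step of the urea cycle. Its probe set 1455540_at had intensities of 6591 and 6390.3 in LXR alpha T0901317 livers, 7293 and 5830.25 in LXR alpha vehicle livers, 6825 and 7181 in the GFP T0901317 livers, and 3548 and 3509 in the GFP vehicle livers. Both GFP vehicle livers lay below all 6 others. With T0901317 in GFP livers Cps1 was 1.98-fold higher (log2 difference 0.99, SE 0.19, 95% interval 0.54 to 1.43), with an adjusted p of 0.158 that lay between 0.0865 and 0.407 under the alternatives. In LXR alpha vehicle livers it was 1.85-fold the GFP vehicle level (log2 difference 0.89, SE 0.19, interval 0.44 to 1.33), with an adjusted p of 0.58.

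In LXR alpha livers the Cps1 difference between T0901317 and vehicle was -0.01 (SE 0.19, interval -0.45 to 0.44) on all arrays and 0.02 without the 3 of high β-actin ratio. The difference of the T0901317 effects, LXR alpha livers minus GFP livers, was -0.995 (SE 0.27), with an adjusted p of 0.957. All of these contrasts except that within LXR alpha livers draw on the same GFP vehicle arrays. With the log2 β-actin ratio added to the fit the difference in GFP livers was 1.02 and that between transgenes in vehicle livers 0.89. The slope on the ratio comes mostly from the LXR alpha T0901317 arrays. This fit therefore cannot separate T0901317 from the ratio in GFP livers.

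Otc joins carbamoyl phosphate to ornithine to form citrulline, and its 3 probe sets did not move alike. The brightest signal, from 1420525_a_at, was 1935 and 3297 in LXR alpha T0901317 livers, 2397 and 2116 in LXR alpha vehicle livers, 2988 and 2798 in the GFP T0901317 livers, and 1719 and 2030.2 in the GFP vehicle livers. Here the GFP T0901317 livers lay above the GFP vehicle livers (log2 difference 0.63, SE 0.29, adjusted p 0.415), while the LXR alpha groups overlapped, with a difference of 0.17 on all arrays and of -0.22 without the 3 arrays of high β-actin ratio. The probe set 1436615_a_at gave 828 and 1292 in LXR alpha T0901317 livers, 1335 and 1419.6 in LXR alpha vehicle livers, 1452 and 1013 in the GFP T0901317 livers, and 1245 and 1191 in the GFP vehicle livers. On it both LXR alpha T0901317 livers were below both LXR alpha vehicle livers (log2 difference -0.41, SE 0.29, adjusted p 0.516). Without the 3 arrays the difference was -0.73. In GFP livers it was -0.01. The third, 1425540_at, was dim, between 38.6 and 68.0 on all arrays, and its difference in LXR alpha livers was 0.01 on all arrays and -0.40 without the 3. Across the 8 arrays the pairwise correlations of the Otc probe sets were 0.29, 0.38 and 0.57.

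Ass1 condenses citrulline with aspartate. The probe set shared by Gm5424 and Ass1, 1416239_at, had intensities of 4352 and 1207 in LXR alpha T0901317 livers, 7215 and 2788 in LXR alpha vehicle livers, 2717 and 3574 in the GFP T0901317 livers, and 4343 and 4958 in the GFP vehicle livers. Its replicates differed widely in both LXR alpha groups. The difference between T0901317 and vehicle there was -0.97 (SE 0.65, adjusted p 0.494) on all arrays and -0.04 without the 3 of high β-actin ratio. Asl, which splits argininosuccinate into arginine and fumarate, had 1731 and 884 in LXR alpha T0901317 livers, 1821 and 1893 in LXR alpha vehicle livers, 1671 and 1159 in the GFP T0901317 livers, and 1469 and 1808 in the GFP vehicle livers. The LXR alpha T0901317 livers lay below the LXR alpha vehicle livers (log2 difference -0.59, SE 0.36, interval -1.44 to 0.27, adjusted p 0.47), and replicate 2 made most of that gap. Without the 3 arrays of high β-actin ratio the Asl difference was -0.10.

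Arg1 releases urea from arginine and closes the cycle. It had 7827 and 6882 in LXR alpha T0901317 livers, 6186 and 6314.5 in LXR alpha vehicle livers, 7609.9 and 6947 in the GFP T0901317 livers, and 5199 and 7121 in the GFP vehicle livers. The T0901317 livers tended to the upper end, and GFP vehicle replicate 2 lay among them. Averaged over both transgenes the T0901317 difference was 0.24 (SE 0.15, interval -0.11 to 0.60, adjusted p 0.326). Its difference between LXR alpha and GFP was 0.04 in vehicle livers and 0.01 in T0901317 livers.

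**Figure D2:**
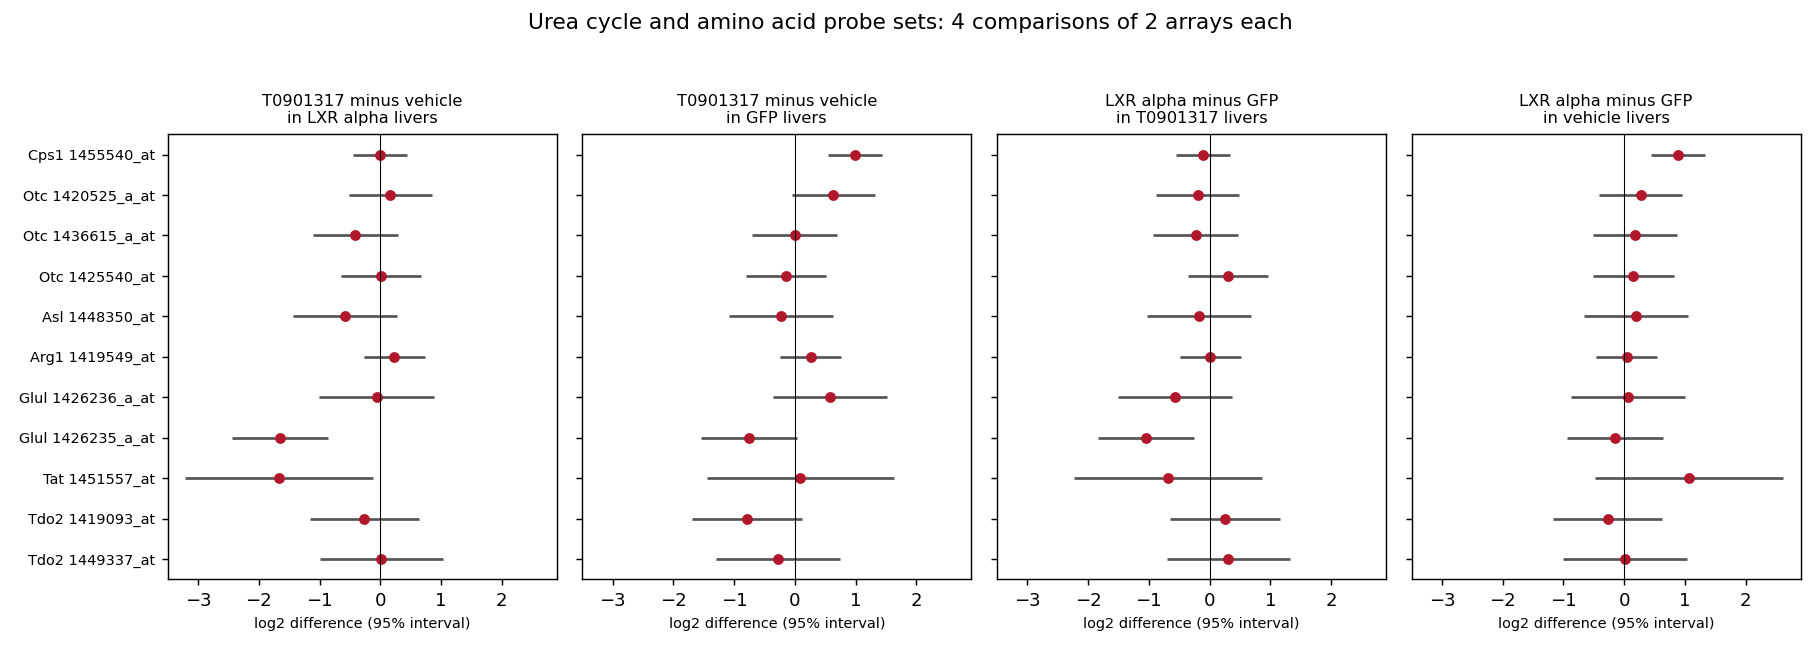
Log2 differences with 95% intervals (limma, 2 arrays against 2) for the 11 probe sets in the 4 comparisons of single groups. The intervals for Cps1 lie above 0 for T0901317 in GFP livers and for LXR alpha in vehicle livers, and those of Glul 1426235_a_at and Tat lie below 0 for T0901317 in LXR alpha livers. The interval of Glul 1426235_a_at also lies below 0 for LXR alpha against GFP in T0901317 livers (-1.84 to -0.25). None passed an adjusted p of 0.05.

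Glul, the glutamine synthetase gene, had 2 probe sets that did not move together. The probe set 1426235_a_at had intensities of 566 and 399 in LXR alpha T0901317 livers, 1602 and 1394 in LXR alpha vehicle livers, 786 and 1222 in the GFP T0901317 livers, and 2028 and 1356 in the GFP vehicle livers. All 4 T0901317 livers were below all 4 vehicle livers, and the LXR alpha T0901317 livers were below the GFP T0901317 livers. It was 3.15-fold lower with T0901317 in LXR alpha livers (log2 difference -1.65, SE 0.33, interval -2.45 to -0.86, adjusted p 0.172) and 1.69-fold lower in GFP livers (log2 difference -0.76, SE 0.33, adjusted p 0.398). Averaged over both transgenes it was 2.31-fold lower (log2 difference -1.21, SE 0.24, interval -1.77 to -0.65), and the adjusted p of 0.0746 missed the threshold. Between LXR alpha and GFP in T0901317 livers the difference was -1.05 (SE 0.33, interval -1.84 to -0.25, adjusted p 1).

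The other Glul probe set, 1426236_a_at, had 1132 and 2456 in LXR alpha T0901317 livers, 1717 and 1760.3 in LXR alpha vehicle livers, 2176 and 2834 in the GFP T0901317 livers, and 1369 and 2015 in the GFP vehicle livers. It was higher with T0901317 in GFP livers, without overlap (log2 difference 0.58, SE 0.40, adjusted p 0.525), and differed by -0.06 in LXR alpha livers, where the T0901317 replicates lay on both sides of the vehicle livers. The difference in LXR alpha livers was -0.62 without the 3 arrays of high β-actin ratio. Across the 8 arrays the Glul probe sets correlated with r = -0.15. The ratio of 1426235_a_at to 1426236_a_at was 0.4997 and 0.162 in LXR alpha T0901317 livers, 0.933 and 0.792 in LXR alpha vehicle livers, 0.361 and 0.431 in the GFP T0901317 livers, and 1.48 and 0.673 in the GFP vehicle livers. Every T0901317 array had a lower ratio than every vehicle array, as the plot of the Glul probe sets shows. The part of the β-actin ratio in this Glul ratio was not tested.

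Leaving out LXR alpha T0901317 replicate 1 gave an averaged Glul 1426235_a_at log2 difference of -1.33. The T0901317 arrays then left were those of high β-actin ratio (7.56, 11.04 and 36.3), so T0901317 and this ratio cannot be told apart in that fit. In that fit 1506 probe sets of the whole table passed, against 90 with all arrays. With the log2 β-actin ratio added to the fit the averaged difference was -0.996, with an adjusted p of 0.154, and over all alternatives its adjusted p lay between 0.0354 and 0.2. Without the 3 arrays of high ratio the difference in LXR alpha livers was -1.40, and over all alternatives it lay between -1.91 and -1.40.

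**Figure D3:**
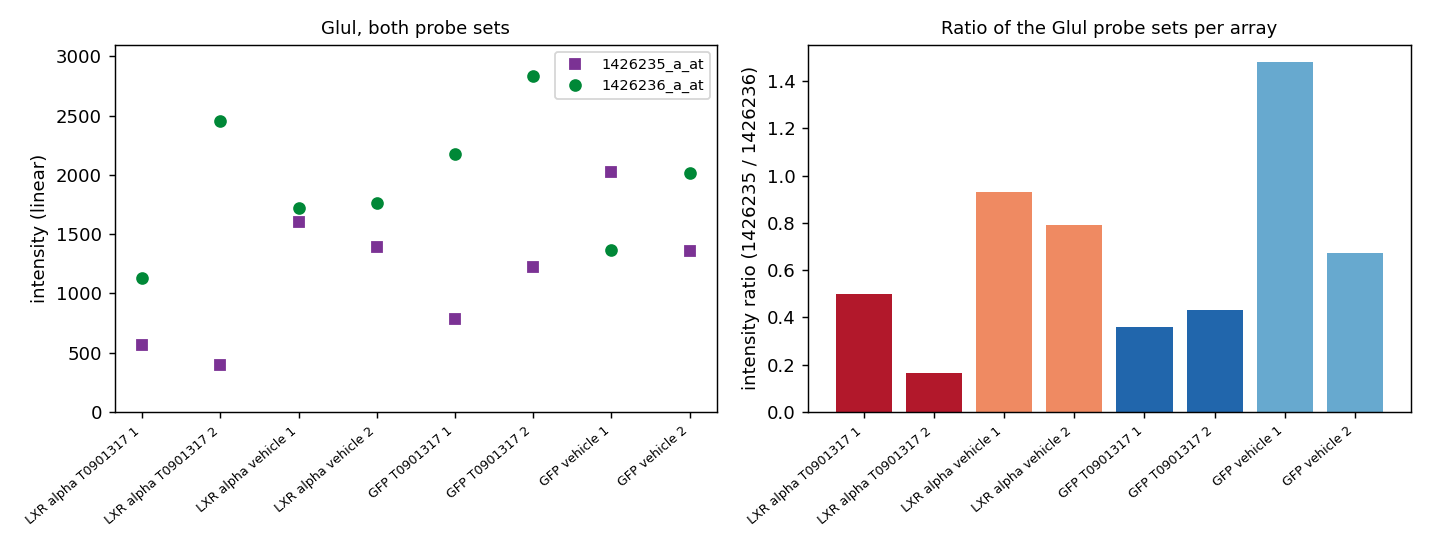
Left, linear intensity of both Glul probe sets on each array. Right, bars from 0 give the ratio of 1426235_a_at to 1426236_a_at on the same arrays, 1 bar per array. The 4 T0901317 arrays lie between 0.162 and 0.4997 and the 4 vehicle arrays between 0.673 and 1.48.

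Tat, tyrosine aminotransferase, had replicates that lay far apart in both T0901317 groups. Its probe set 1451557_at had intensities of 3579 and 1008 in LXR alpha T0901317 livers, 5754 and 6291 in LXR alpha vehicle livers, 1894 and 4954 in the GFP T0901317 livers, and 3332 and 2480.2 in the GFP vehicle livers. The LXR alpha vehicle livers were the highest of the 4 groups and did not overlap any of them. Tat was 3.17-fold lower with T0901317 in LXR alpha livers (log2 difference -1.66, SE 0.65, interval -3.21 to -0.12, adjusted p 0.356). In LXR alpha vehicle livers it was 2.09-fold the GFP vehicle level (log2 difference 1.07, SE 0.65, interval -0.48 to 2.61, adjusted p 0.963). Without the 3 arrays of high β-actin ratio the T0901317 difference in LXR alpha livers was -0.75. Over all alternatives it lay between -2.58 and -0.75.

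Tdo2, tryptophan 2,3-dioxygenase, opens the kynurenine pathway. Its brighter signal, from 1419093_at, was 4996 and 3373 in LXR alpha T0901317 livers, 5524 and 4376 in LXR alpha vehicle livers, 4939 and 2384 in the GFP T0901317 livers, and 5407 and 6531 in the GFP vehicle livers. The GFP T0901317 livers lay below the GFP vehicle livers (log2 difference -0.79, SE 0.38, adjusted p 0.434). The other, 1449337_at, ranged from 480.2 to 1127 over the 8 arrays, both extremes in GFP T0901317 livers, with a difference of -0.28 there and of 0.02 in LXR alpha livers. The Tdo2 differences in LXR alpha livers without the 3 arrays of high β-actin ratio were 0.02 for 1419093_at, against -0.26 on all arrays, and -0.23 for 1449337_at.

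By group order, 3 of the 11 probe sets were higher and 3 lower without overlap for T0901317 in GFP livers, where 58.3% of all probe sets did not overlap (23.2% higher, 35.2% lower). In LXR alpha livers 1 was higher and 4 were lower without overlap, where 48.4% of all did not overlap (20% higher, 28.4% lower). For LXR alpha against GFP in vehicle livers 6 were higher and 0 lower, where 44.4% of all did not overlap (30.9% higher, 13.5% lower). For LXR alpha against GFP in T0901317 livers 0 were higher and 2 lower, where 19.3% of all did not overlap (10.6% higher, 8.72% lower). Between all 4 T0901317 livers and all 4 vehicle livers 0 were higher and 1 was lower, Glul 1426235_a_at, where 16.6% of all probe sets did not overlap (8.2% higher, 8.44% lower). With 2 arrays per group such separation is common over the whole array.

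The genes whose log2 intensity followed these members most closely over the 8 arrays were ranked among 9358 others as a description. Npm1 (r = 0.99), Pigx (0.96) and Rassf7 (0.95) were nearest to Arg1. Ifnar1 (0.97), B4galt3 (0.95) and the fibrinogen chain gene Fgg (0.95) were nearest to Tat. Dtnbp1 (0.97), Bmp5 (0.96) and the fatty acid oxidation gene Hadh (0.95) were nearest to Tdo2. For Glul 1426236_a_at they were 1700001C19Rik (0.96), Ccdc59 (0.95) and Tob2 (0.93).

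Genes around these members were described through 7 lists of amino acid metabolism, of 76 genes in all, of which 63 were tested. None of the 63 passed an adjusted p of 0.05 in any comparison. With T0901317 in LXR alpha livers 15 were higher and 48 lower, with a median log2 difference of -0.31 against -0.03 over all 9359 genes, and 27.0% had an unadjusted p under 0.05 against 13.3% of all genes. In GFP livers 34 were higher and 29 lower with T0901317, with a median of 0.06 against -0.02, where 51.8% of all genes were lower. An unadjusted p under 0.05 was found there for 11.1%, against 12.3% of all genes. In LXR alpha vehicle livers 51 were higher and 12 lower than in GFP vehicle livers, with a median of 0.34 against 0.05. Of all genes 40.1% were lower in that comparison. An unadjusted p under 0.05 was found for 15.9% of the 63, against 5.61% of all genes. The lists were chosen with earlier results of these data known, so the shares over all genes are not an even background for them. The comparisons in LXR alpha livers and between vehicle livers share the LXR alpha vehicle arrays, so the lower values in one and the higher values in the other rest partly on the same 2 livers. Without the 3 arrays of high β-actin ratio 44 of the 63 were lower with T0901317 in LXR alpha livers, with a median of -0.22. On all arrays quantile normalization gave 52 lower, where 51.2% of all genes were lower. Centring each array on its median gave 44 lower, where the share of all genes that were lower was 41.6% in place of 52.8%. Between vehicle livers 51 and 50 of the 63 were higher in LXR alpha livers under these scalings, where 42.6% and 46.3% of all genes were lower.

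**Figure D4:**
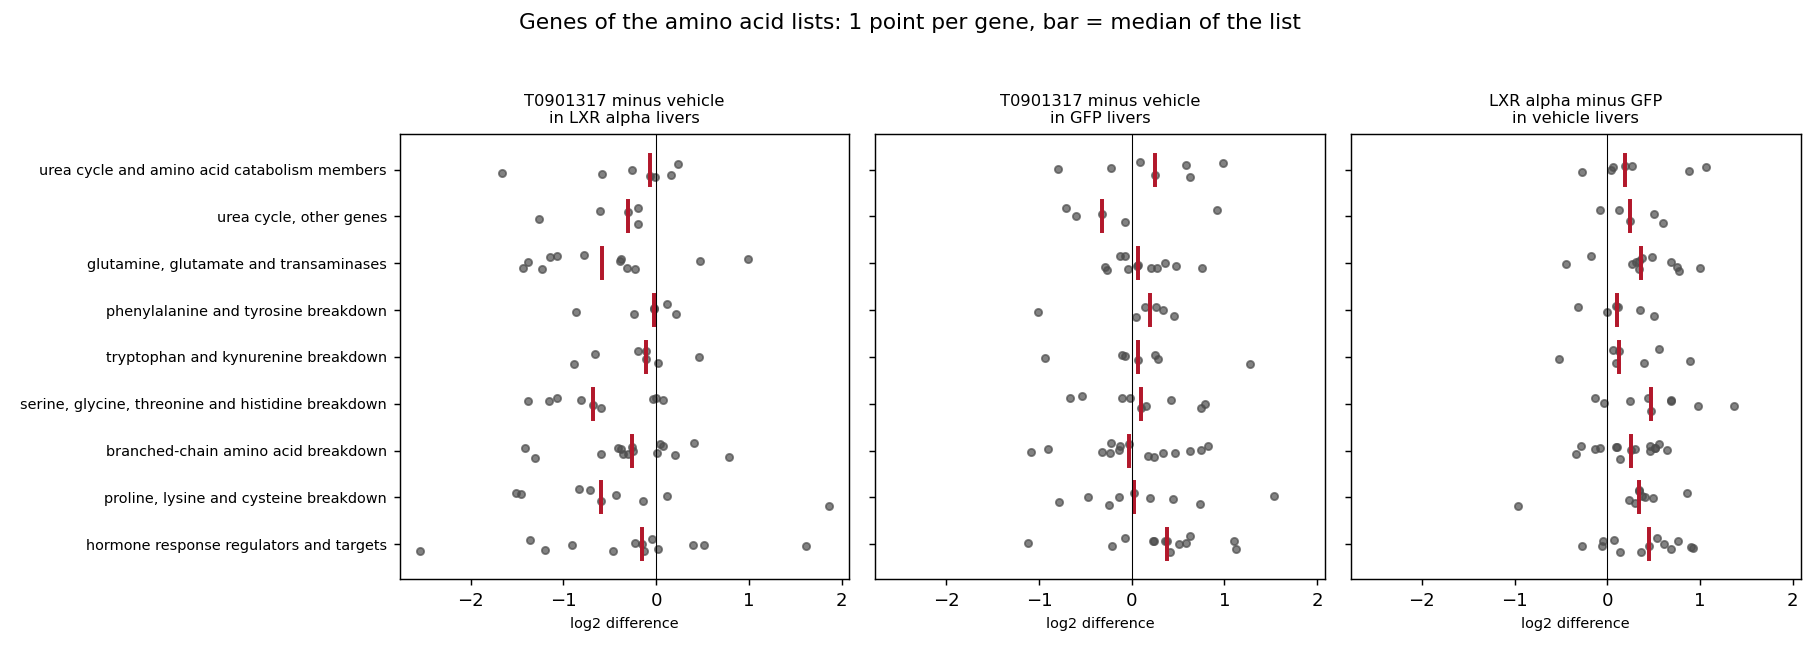
Log2 difference of each tested gene (points, 1 probe set per gene) in the members' list, 7 amino acid lists and a list of hormone response genes, with the median of each list as a bar. Medians lie mostly below 0 for T0901317 in LXR alpha livers and above 0 for LXR alpha against GFP in vehicle livers.

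Among the glutamine, glutamate and transaminase genes, 10 of 12 were lower with T0901317 in LXR alpha livers. Slc38a3, a glutamine transporter of the hepatocyte membrane, had intensities of 1683 and 1375 in LXR alpha T0901317 livers, 3394 and 3004 in LXR alpha vehicle livers, 1381 and 1748 in the GFP T0901317 livers, and 1879 and 1918 in the GFP vehicle livers. Both T0901317 groups lay below their vehicle groups, with a log2 difference averaged over transgenes of -0.68 (SE 0.16) and an adjusted p of 0.0947. Oat, ornithine aminotransferase, which like Glul is most abundant near the central vein, had 1867 and 1695 in LXR alpha T0901317 livers, 5548 and 3854 in LXR alpha vehicle livers, 2753 and 4743 in the GFP T0901317 livers, and 3232 and 4283 in the GFP vehicle livers. In LXR alpha livers both T0901317 livers had less Oat than both vehicle livers (log2 difference -1.38, SE 0.33, adjusted p 0.192), and the GFP groups overlapped. Gpt2, an alanine aminotransferase, ran the other way in LXR alpha livers (0.99, SE 0.29, adjusted p 0.262), but another of its probe sets, 1434542_at, differed by -0.42.

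The list of serine, glycine, threonine and histidine breakdown had 8 of 9 genes lower with T0901317 in LXR alpha livers and a median of -0.68. Hal, histidine ammonia lyase, had 359 and 264 in LXR alpha T0901317 livers, 605 and 1063 in LXR alpha vehicle livers, 534 and 509.8 in the GFP T0901317 livers, and 369.9 and 261 in the GFP vehicle livers. Its differences had opposite signs, at -1.38 (SE 0.35) in LXR alpha livers and 0.75 (SE 0.35) in GFP livers. Shmt2, the mitochondrial serine hydroxymethyltransferase, had 164 and 112 in LXR alpha T0901317 livers, 281 and 286 in LXR alpha vehicle livers, 176 and 129.8 in the GFP T0901317 livers, and 268 and 216 in the GFP vehicle livers. All 4 T0901317 livers were below all 4 vehicle livers (averaged log2 difference -0.87, SE 0.20, adjusted p 0.0932), but another Shmt2 probe set, 1455084_x_at, differed by 0.45. Agxt, the peroxisomal alanine-glyoxylate aminotransferase, differed by -1.15 (SE 0.40, adjusted p 0.316) in LXR alpha livers, and Gldc, of the glycine cleavage system, by -0.81, which was -0.40 without the 3 arrays of high β-actin ratio.

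Of the proline, lysine and cysteine genes 7 of 9 were lower with T0901317 in LXR alpha livers. Prodh2, hydroxyproline dehydrogenase, had 348 and 181 in LXR alpha T0901317 livers, 618 and 829.7 in LXR alpha vehicle livers, 379 and 259.6 in the GFP T0901317 livers, and 635 and 459 in the GFP vehicle livers, again with no overlap between T0901317 and vehicle (averaged difference -1.15, SE 0.28, adjusted p 0.0992). Prodh, proline dehydrogenase, differed by 1.53 (SE 0.31, adjusted p 0.168) with T0901317 in GFP livers and by 0.12 in LXR alpha livers (-0.29 without the 3 arrays of high β-actin ratio). Csad, which makes hypotaurine for taurine synthesis, differed by 1.86 (SE 0.43, adjusted p 0.19) in LXR alpha livers and by 0.44 in GFP livers.

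The remaining lists had smaller medians with T0901317 in LXR alpha livers, where 52.8% of all genes were lower. All 5 other urea cycle genes were lower there, with a median of -0.30, and Glud1, glutamate dehydrogenase, differed by -1.26 (SE 0.51, adjusted p 0.363). Its T0901317 replicates there had 3848 and 1186, against 4549.98 and 5780.5 in LXR alpha vehicle livers. Without the 3 arrays of high β-actin ratio the Glud1 difference was -0.41. Slc25a15, the mitochondrial ornithine carrier, differed by 0.93 with T0901317 in GFP livers, while its other probe set 1420966_at differed by -2.02, and Slc25a13, the aspartate-glutamate carrier, by -0.70. In LXR alpha livers Slc25a15 1420967_at differed by -0.30 and Slc25a13 by -0.60 on all arrays, and by -0.01 each without the 3. The other Slc25a15 probe set, 1420966_at, differed by -2.19 in LXR alpha livers on all arrays, so the Slc25a15 probe sets did not move alike there. In the branched-chain list 9 of 15 genes were lower, and Pccb, a subunit of propionyl-CoA carboxylase, differed by -1.16 (SE 0.39, adjusted p 0.163) averaged over transgenes. In LXR alpha livers Pccb differed by -1.41 on all arrays and by -0.51 without the 3. Mccc2, of methylcrotonyl-CoA carboxylase, was dim, at 6.74 to 48.6 with LXR alpha T0901317 replicate 2 below the floor, so no size is given for its difference. Mmut, methylmalonyl-CoA mutase, differed by 0.58 and Hibadh, 3-hydroxyisobutyrate dehydrogenase, by 0.24 in that average. Another probe set of Mmut, 1416839_at, differed by -0.09 and another of Hibadh, 1423780_at, by -0.28.

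In the phenylalanine and tyrosine list 4 of 6 genes were lower with T0901317 in LXR alpha livers, and Gstz1, maleylacetoacetate isomerase, differed by -0.93 (SE 0.27, adjusted p 0.13) averaged over transgenes. Hgd and Hpd, further steps below Tat, differed by -0.02 and -0.23 in LXR alpha livers. In the tryptophan list 5 of 7 were lower, with Kmo at -0.88, Aadat at -0.65 and Kyat3 at 0.02 in LXR alpha livers. Kyat3 was at 0.50 and Hgd at 0.11 there without the 3 arrays of high β-actin ratio. Ido2, which acts on tryptophan like Tdo2, was dim, at 24.4 and 37.1 in LXR alpha T0901317 livers, 18.3 and 26.2 in LXR alpha vehicle livers, 55.8 and 46.8 in the GFP T0901317 livers, and 17.2 and 25.7 in the GFP vehicle livers. Its difference was 1.28 (SE 0.31, adjusted p 0.199) in GFP livers and 0.46 in LXR alpha livers (0.16 without the 3).

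Genes of the hormone response list include regulators and targets of glucocorticoids and fasting signals. With T0901317 in LXR alpha livers 9 of 13 were lower, with a median of -0.15, where 52.8% of all genes were lower. In GFP livers 10 of the 13 were higher with T0901317, with a median of 0.38. Of all genes 51.8% were lower there, with a median of -0.02. Both GFP T0901317 arrays had a high β-actin ratio, so T0901317 and this ratio cannot be told apart in GFP livers. Averaged over transgenes 8 were higher and 5 lower, with a median of 0.12, where 51.0% of all genes were lower, with a median of -0.01. Tsc22d3, a glucocorticoid target, had 292 and 52.4 in LXR alpha T0901317 livers, 448 and 1165 in LXR alpha vehicle livers, 222 and 142 in the GFP T0901317 livers, and 331 and 450.2 in the GFP vehicle livers. Its T0901317 difference in LXR alpha livers was -2.55 (SE 0.81, adjusted p 0.288), and that of its other probe sets was -1.45 for 1420772_a_at and -0.38 for 1425557_x_at. The Tsc22d3 1425281_a_at difference was -1.31 without the 3 arrays of high β-actin ratio. Klf15, a transcription factor of amino acid breakdown genes, differed by -1.19 (SE 0.30, adjusted p 0.204) with T0901317 in LXR alpha livers and by 0.92 (SE 0.30, adjusted p 0.872) between LXR alpha and GFP in vehicle livers. Pck1, the gluconeogenic enzyme, differed by -1.36 (SE 0.43, adjusted p 0.282) in LXR alpha livers, but its probe set 1455209_at by 0.02. Without the 3 arrays of high β-actin ratio the differences in LXR alpha livers were -0.69 for Pck1 and -0.85 for Klf15.

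Markers of other cells and zones were described in the same comparisons. With 1 probe set tested per gene, the only marker past an adjusted p of 0.05 was Lyve1, of sinusoidal and lymphatic endothelium, named here after its values were seen. It was higher with T0901317 averaged over transgenes, with a log2 difference of 2.05 (SE 0.29, adjusted p 0.0489). The 3 arrays of high β-actin ratio are all on the T0901317 side of this comparison. With that ratio as covariate 4 probe sets of the table passed in it, against 90 without. Whether Lyve1 was among these 4 is not given here. Over all genes the median in that comparison was -0.01, with 51.0% lower. Of the endothelial markers 8 of 9 were higher there, with a median of 0.40. Their summed intensity was 1349 to 1368 in LXR alpha T0901317 livers, 685 to 1107 in LXR alpha vehicle livers, 1377 to 1474 in the GFP T0901317 livers, and 968 to 1082 in the GFP vehicle livers. The summed intensity of 11 pericentral hepatocyte markers, Oat among them, was 14089 to 17346 in LXR alpha T0901317 livers, 25857 to 26199.7 in LXR alpha vehicle livers, 18174 to 24200.0 in the GFP T0901317 livers, and 19030.4 to 20085 in the GFP vehicle livers, and at most 1 of the 11 was at the floor in both arrays of a group. That of 9 periportal markers, Hal and Pck1 among them, was 21359 to 27560.0 in LXR alpha T0901317 livers, 28639 to 29717 in LXR alpha vehicle livers, 14941 to 27242 in the GFP T0901317 livers, and 28534 to 34636 in the GFP vehicle livers. The 13 macrophage markers summed to 4486 to 5569 in LXR alpha T0901317 livers, 1769 to 5398 in LXR alpha vehicle livers, 4102 to 9732 in the GFP T0901317 livers, and 7339 to 10005 in the GFP vehicle livers. All 13 were lower in LXR alpha vehicle livers than in GFP vehicle livers, with a median of -1.57. Over all genes that median was 0.05, with 40.1% lower. The 10 stellate cell and matrix markers summed to 3066 to 3636 in LXR alpha T0901317 livers and 999 to 1243 in LXR alpha vehicle livers. These sums were 2488 to 3519.5 in the GFP T0901317 livers and 1916 to 3231 in the GFP vehicle livers. With T0901317 in LXR alpha livers 9 of the 10 were higher, where 52.8% of all genes were lower. Sums of 6 hepatocyte markers were 81381 to 97404 in LXR alpha T0901317 livers, 99515 to 103326 in LXR alpha vehicle livers, 84737 to 88234 in the GFP T0901317 livers, and 89374 to 96175 in the GFP vehicle livers. In RNA from whole liver, fewer cells of a type and less RNA per cell cannot be told apart, and the part of these markers in the amino acid gene values was not tested.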

How the data were processed

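RNA of 8 mouse livers was measured on Affymetrix arrays, per the labels. The authors deposited 1 linear intensity per probe set and array. How probes were summarised and arrays scaled is not given in the sources used here. Of 22690 probe sets, 64 controls were left out. Symbols came from the platform annotation, updated through RefSeq. A floor of 7.50, the 20th percentile, was set before taking log2. The 15838 probe sets with a mean above the 30th percentile were tested with limma 3.58.1 (R 4.3.3) in 1 fit of 4 group means on 8 arrays, with Benjamini-Hochberg adjustment over all probe sets per comparison. Precision is limited by the small number of arrays, and p-values reflect only the spread between these samples. A gene outside the members is represented by its brightest tested probe set, one ending in x_at being a last choice.

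The members and lists were chosen with earlier results of these data known. Genes named are all members, and from each list any gene called, the 3 with the smallest p for averaged T0901317 and the 1 with the smallest p for LXR alpha in vehicle livers. For Glul, Arg1, Tat and Tdo2 the 3 most correlated genes were added. For each marker list the rule takes the 2 brightest genes, of which Alb, Oat and Pck1 are described. The steps were tested on simulated data. Alternatives were other scalings, floors, filters and spread estimates, a replicate block, the β-actin ratio as covariate, and arrays left out. The log2 deviations of same-numbered arrays from different groups correlated with r between -0.14 and 0.25, so the numbers were not taken to pair the samples.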

Additional observations from a re-analysis of the deposited data

Results flagged for a closer look

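Among 38 probe sets of members and named list genes, 3 differed in opposite directions with T0901317 in LXR alpha livers and in GFP livers, without overlap of T0901317 and vehicle arrays on either side. Of all 15838 probe sets, 2.93% did so, but the named list genes were picked by small p-values in these same data. Part of that choice used LXR alpha against GFP in vehicle livers, which shares vehicle arrays with both T0901317 differences. The share over all probe sets is therefore not an even background for the named genes. Hal, histidine ammonia lyase, differed by -1.38 in LXR alpha livers and by 0.75 in GFP livers, so that the difference of the effects was -2.13 (limma interaction, adjusted p 0.906, unadjusted p 0.00341). Hpd, 4-hydroxyphenylpyruvate dioxygenase, differed by -0.23 in LXR alpha livers and by 0.46 in GFP livers, a difference of -0.69 (adjusted p 1.00, unadjusted p 0.0368). Kmo, kynurenine 3-monooxygenase, differed by -0.88 in LXR alpha livers and by 0.07 in GFP livers, a difference of -0.96 (adjusted p 1.00, unadjusted p 0.0941). None of the 3 interactions passed the adjusted threshold. Both GFP T0901317 arrays had a high β-actin ratio, but of the LXR alpha T0901317 arrays only replicate 2 did. These interactions are therefore mixed in part with this ratio.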

How the results depend on the processing

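The counts of member probe sets past an adjusted p of 0.05 were recomputed 132 times and 131 of them stayed at 0. The exception was Glul 1426235_a_at in the averaged T0901317 comparison without LXR alpha T0901317 replicate 1, and its cause was not tested. In that fit all T0901317 arrays left had a high β-actin ratio, so T0901317 and the ratio cannot be told apart. Of 1501 single probe set differences recomputed under 21 settings, 1402 kept their sign and 99 changed it, none of them called. The replicate block changed 0 signs and no call, and the averaged Glul 1426235_a_at difference then had an adjusted p of 0.0964. The β-actin covariate changed 14 of 77 signs. Of the 63 amino acid list genes, leaving out LXR alpha T0901317 replicate 1 let 4 pass in LXR alpha livers, where 474 probe sets of the table passed, and 10 pass in the averaged T0901317 comparison, where 1506 passed. With the covariate, which cannot be separated from T0901317 in GFP livers, 18 of the 63 were lower there with T0901317, against 29 without the covariate. These counts of list genes, and the differences of single list genes without the 3 arrays of high β-actin ratio, were added after seeing the data. The averages could not be fitted without the 3 arrays of high β-actin ratio, nor with only the groups compared, and counts of probe sets have no version with probe sets averaged per gene. The 2 arrays per group and 4 residual degrees of freedom limit what any comparison can show.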
